A study of Mus musculus with 6 samples.

Results

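The glycolysis enzymes described here are 10 genes, Hk2, Gpi1, Pfkl, Aldoa, Gapdh, Pgk1, Pgam1, Eno1, Pkm and Ldha, chosen by name from the 27998 genes of the deposited count table. They cover the steps from glucose phosphorylation to lactate other than that of Tpi1, which lies between Aldoa and Gapdh. The table comes from single-cell RNA-seq of iGMPs, granulocyte-macrophage progenitors of mouse bone marrow that a HOXA9 transcription factor keeps in self-renewal. All 10 genes had counts in each of the 6 libraries.

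The cells of all 6 libraries carry a Lys-GFP reporter and HOXA9 fused to the ligand-binding domain of an estrogen receptor with the G400V mutation (ER-HOXA9), in the strain the labels write as C57BI/6, and grew with stem cell factor from conditioned medium. In the CAF-1 OFF arm, 1 clone with an IPTG-inducible hairpin RNA against Chaf1b (shChaf1b), which encodes part of the CAF-1 complex that loads histones, was kept in 150 ng/ml estradiol and given 500 µM IPTG for 48 or 96 h. In the HOXA9 OFF arm, 1 clone with a control hairpin (shCTRL) had estradiol withdrawn for 48 or 96 h, which inactivates the fusion protein. The 0 h libraries were cultured with estradiol and without IPTG. Each arm has 1 library per time point, so the effect of the induction cannot be told apart from differences between cultures, and none of the differences was tested between groups.

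Glycolysis turns glucose into pyruvate in the cytosol and yields ATP and NADH. Lactate dehydrogenase then reduces pyruvate to lactate and restores NAD+, while pyruvate that enters mitochondria feeds the citrate cycle. Dividing progenitors draw on the pathway for building blocks such as serine and ribose, and mature neutrophils, which have few active mitochondria, are known to live largely on glycolysis and glycogen. MYC and HIF-1 are known activators of many genes of the pathway.

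Counts are unique molecular identifiers (UMIs), which count an mRNA molecule once however often it was amplified, read at the 3′ end so that the length of the transcript does not enter. Between 473 and 1510 cells per library were used, with library totals between 3524285 and 5589486 UMIs. Levels are given as CPM, UMIs of the gene per 1000000 UMIs of the library, and intervals are exact and cover counting error only. The median UMI count per cell was 8660.0 at 0 h under HOXA9 OFF and 2043.5 at 96 h, and the 10 most abundant genes took 7.56% and 26.1% of the UMIs of these libraries, against 7.55% to 8.21% under CAF-1 OFF. A CPM of any other gene is lowered where a few genes take such a share. The removed barcodes also differed, with 41.7% and 66.2% of the 0 h libraries of CAF-1 OFF and HOXA9 OFF, against 0.198% to 18.3% of the later ones. The 0 h libraries, to which ratios are taken, were thus the most filtered. Chaf1b, the target of the hairpin, was at 35.6, 3.22 and 6.49 CPM at 0, 48 and 96 h under CAF-1 OFF and at 51.5, 15.3 and 1.13 CPM under HOXA9 OFF. In the 0 h libraries the eosinophil list summed to 217 and 1469.6 CPM under CAF-1 OFF and HOXA9 OFF. The mast cell or basophil list summed to 287 and 829 CPM, so these libraries were not alike in either list. At 0 h the progenitor list (Mpo, Ctsg, Cd34 and 5 others) summed to 7579 CPM under CAF-1 OFF and 6701 CPM under HOXA9 OFF. At the same time the late granulocyte list (S100a8, Ltf and 9 others) summed to 34.2 and 30.1 CPM, with S100a9, Ltf, Ngp and Ly6g at 0 in both. Of 5856 distinct barcode sequences among the kept cells, 16 occurred in more than 1 library, and the values without those cells are given with the other settings at the end.

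The 10 enzymes in sum, though not each of them, were lower in CPM in all 4 induced libraries than at 0 h. Other scalings turned this direction at 96 h of HOXA9 OFF. Their summed level was 6819, 6121 and 5243 CPM at 0, 48 and 96 h under CAF-1 OFF and 6572, 4842 and 5044 CPM under HOXA9 OFF. In order of level the libraries ran CAF-1 OFF 0 h, HOXA9 OFF 0 h, CAF-1 OFF 48 h, CAF-1 OFF 96 h, HOXA9 OFF 96 h and HOXA9 OFF 48 h, and no neighbouring 95% Poisson intervals overlapped. The gap between the 0 h libraries, a ratio of 0.964 (95% interval 0.948 to 0.980) for HOXA9 OFF over CAF-1 OFF, shows that libraries without induction lay further apart than counting error. Against 0 h, the sum was 1.11-fold lower (95% interval 1.10 to 1.13) at 48 h and 1.30-fold lower (95% interval 1.28 to 1.32) at 96 h of CAF-1 OFF. Under HOXA9 OFF it was 1.36-fold lower (95% interval 1.33 to 1.38) at 48 h and 1.30-fold lower (95% interval 1.28 to 1.33) at 96 h, but the value at 96 h turned to a higher level under 2 other scalings (log2 ratio -0.38 on library totals, 0.10 with TMM factors and 0.18 with median-of-ratios factors). In UMIs per cell the sum was 3.18-fold lower at 48 h and 4.94-fold lower at 96 h of HOXA9 OFF. In CPM, 5 members lay below 0 h beyond counting error at each later time of HOXA9 OFF. Another 4 (Hk2, Gpi1, Aldoa and Pkm) lay above it at both. The largest falls in CPM were those of Gapdh (2063, 996 and 1024 CPM) and Ldha (962, 291 and 170.0 CPM). The sums of HOXA9 OFF at 48 and 96 h lay close together in CPM. Hk2, Gpi1, Pfkl, Pgam1, Eno1, Pkm and Ldha differed between these libraries by 1.5-fold or more in CPM, as the plot of CPM by library shows.

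**Figure D1:**
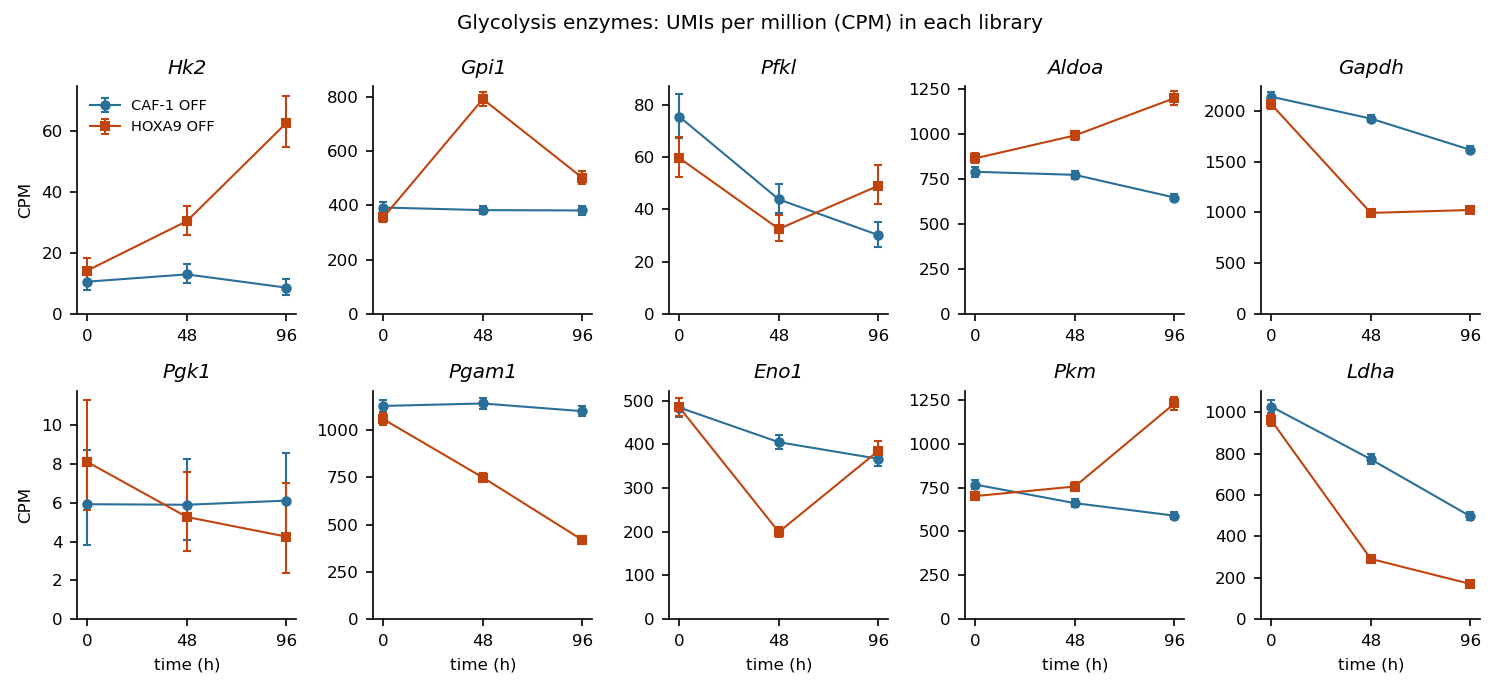
CPM of each of the 10 glycolysis genes (vertical axis, from 0, own scale per gene) against time in h, with CAF-1 OFF as blue circles, HOXA9 OFF as orange squares, 1 library per point, and bars for the exact 95% Poisson interval. Ldha and Pgam1 are lower at each later time under HOXA9 OFF, while Aldoa and Pkm reach 1199 and 1231 CPM at 96 h, above 0 h in CPM and below it in UMIs per cell.

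Among the members only Hk2 belongs to the first step, phosphorylation of glucose, and it was at a low level. The hexokinases Hk1 and Hk3, not among the 10, are given further below. Hk2, the inducible hexokinase that binds mitochondria, was at 10.7, 13.1 and 8.71 CPM under CAF-1 OFF and at 14.3, 30.5 and 62.7 CPM under HOXA9 OFF. Its counts were between 45 and 221 UMIs per library. Under HOXA9 OFF it was 2.13-fold higher (95% interval 1.58 to 2.91) than 0 h at 48 h and 4.38-fold higher (95% interval 3.28 to 5.93) at 96 h, the highest ratio of the 10 genes in CPM. Per cell it was at 0.127, 0.115 and 0.146 UMIs, so that the direction at 48 h turned with UMIs per cell, while at 96 h the gene was above 0 h under each of 10 alternative settings. Under CAF-1 OFF the ratio to 0 h was 1.22 (95% interval 0.832 to 1.82) at 48 h and 0.816 (95% interval 0.531 to 1.26) at 96 h, and both intervals include 1.

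Gpi1, which turns glucose 6-phosphate into fructose 6-phosphate, was the only member with its highest level at 48 h of HOXA9 OFF. It was at 356, 791 and 501 CPM there and at 392, 383 and 382 CPM under CAF-1 OFF. The intervals of the 3 CAF-1 OFF libraries overlapped. The HOXA9 OFF library at 48 h was 2.22-fold higher (95% interval 2.10 to 2.36) than at 0 h, and the library at 96 h was 1.41-fold higher (95% interval 1.31 to 1.51) than 0 h and 1.58-fold lower (95% interval 1.49 to 1.67) than 48 h. Both directions against 0 h turned with UMIs per cell, which were 3.15, 2.99 and 1.17.

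Pfkl, the liver-type subunit of phosphofructokinase that carries the committed step, was lower under CAF-1 OFF at both times. It was at 75.5, 43.8 and 30.2 CPM under CAF-1 OFF and at 59.7, 32.6 and 49.1 CPM under HOXA9 OFF. It was 1.72-fold lower (95% interval 1.45 to 2.04) than 0 h at 48 h and 2.50-fold lower (95% interval 2.06 to 3.03) at 96 h under CAF-1 OFF, and 1.83-fold lower (95% interval 1.503 to 2.24) at 48 h under HOXA9 OFF. At 96 h of HOXA9 OFF the ratio was 0.823 (95% interval 0.674 to 1.00), and its direction turned under 3 of the 10 settings, with log2 ratios of -0.24 on library totals and 0.17 with TMM factors. At 0 h the libraries already differed in this gene, with HOXA9 OFF 1.26-fold lower (95% interval 1.07 to 1.499) than CAF-1 OFF.

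Aldoa, the aldolase that splits fructose 1,6-bisphosphate into triose phosphates, lay on opposite sides of its 0 h level in the arms at 96 h. It was at 790.1, 773 and 648 CPM under CAF-1 OFF and at 865, 992 and 1199 CPM under HOXA9 OFF. At 96 h it was 1.22-fold lower (95% interval 1.16 to 1.28) than 0 h under CAF-1 OFF and 1.39-fold higher (95% interval 1.33 to 1.45) under HOXA9 OFF. The direction under HOXA9 OFF held in CPM under 9 of 10 settings and turned with UMIs per cell, which were 7.66, 3.75 and 2.80.

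Gapdh oxidises glyceraldehyde 3-phosphate and makes the NADH of the pathway, and it had the most UMIs of the 10 genes in 5 of the 6 libraries. It was at 2137, 1922 and 1615 CPM under CAF-1 OFF and at 2063, 996 and 1024 CPM under HOXA9 OFF. The later libraries of both arms were below 0 h, under HOXA9 OFF 2.07-fold lower (95% interval 2.00 to 2.14) at 48 h and 2.01-fold lower (95% interval 1.94 to 2.09) at 96 h, and under CAF-1 OFF 1.11-fold lower (95% interval 1.08 to 1.14) and 1.32-fold lower (95% interval 1.28 to 1.36). Between both later HOXA9 OFF libraries the ratio was 1.03 (95% interval 0.986 to 1.07). Gapdh took 31.4% of the 10 genes' UMIs at 0 h under HOXA9 OFF and 20.3% at 96 h, when Pkm with 24.4% stood above it.

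Pgk1, the phosphoglycerate kinase that makes the first ATP, was counted at a level far under its neighbours. It was at 5.93, 5.90 and 6.12 CPM under CAF-1 OFF and at 8.11, 5.27 and 4.26 CPM under HOXA9 OFF, from 15 to 34 UMIs per library. The gene has near-identical copies, and reads that fit more than 1 copy are hard to assign in such counts. Whether that lowered the values was not tested. Its listed copy Pgk1-rs7, named after its values were seen, held at most 1.19 CPM. With so few counts the intervals were wide, and the ratio at 96 h of HOXA9 OFF was 0.525 (95% interval 0.265 to 0.989).

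Pgam1, which moves the phosphate group of 3-phosphoglycerate, was below its 0 h level beyond counting error under HOXA9 OFF, while both intervals of CAF-1 OFF include 1. It was at 1127, 1140.2 and 1099 CPM under CAF-1 OFF, with ratios to 0 h of 1.01 (95% interval 0.974 to 1.05) and 0.975 (95% interval 0.939 to 1.01). Under HOXA9 OFF it was at 1057, 749 and 418 CPM. That is 1.41-fold lower (95% interval 1.35 to 1.47) at 48 h and 2.53-fold lower (95% interval 2.38 to 2.69) at 96 h, and each of 10 settings kept the direction under HOXA9 OFF.

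Eno1, the enolase that makes phosphoenolpyruvate, had its lowest level at 48 h of HOXA9 OFF. It was at 485, 199 and 386 CPM there and at 485, 405 and 367 CPM under CAF-1 OFF. It was 2.43-fold lower (95% interval 2.26 to 2.62) than 0 h at 48 h, and the library at 96 h was 1.93-fold higher (95% interval 1.78 to 2.10) than the one at 48 h. Against 0 h the value at 96 h was 1.26-fold lower (95% interval 1.17 to 1.35), a direction that turned under 3 of 10 settings. Under CAF-1 OFF the gene was 1.20-fold lower (95% interval 1.13 to 1.27) at 48 h and 1.32-fold lower (95% interval 1.24 to 1.405) at 96 h.

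Pkm, the pyruvate kinase of most tissues other than liver, followed Aldoa. It was at 768, 662 and 590.2 CPM under CAF-1 OFF and at 702, 757 and 1231 CPM under HOXA9 OFF. It was 1.30-fold lower (95% interval 1.24 to 1.37) than 0 h at 96 h of CAF-1 OFF, and 1.75-fold higher (95% interval 1.67 to 1.84) at 96 h of HOXA9 OFF. Per cell the HOXA9 OFF libraries held 6.22, 2.86 and 2.87 UMIs, so that this direction too turned with UMIs per cell. Counts at the 3′ end do not separate the splice forms M1 and M2 of this gene.

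Ldha, the subunit of lactate dehydrogenase that favours lactate formation, had the lowest ratio to 0 h of the 10 genes at both times of HOXA9 OFF. It was at 1028, 773 and 497 CPM under CAF-1 OFF and at 962, 291 and 170.0 CPM under HOXA9 OFF. The value at 0 h was the highest and that at 96 h the lowest in both arms, and no 2 libraries of an arm overlapped in their intervals. Under CAF-1 OFF it was 1.33-fold lower (95% interval 1.27 to 1.39) at 48 h and 2.07-fold lower (95% interval 1.97 to 2.17) at 96 h. Under HOXA9 OFF it was 3.30-fold lower (95% interval 3.11 to 3.51) and 5.66-fold lower (95% interval 5.19 to 6.18). Per cell, Ldha went from 8.52 to 0.397 UMIs under HOXA9 OFF, and each of 10 settings kept the direction in all 4 comparisons.

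The promoters of these genes were read for ACGTG, a 5-letter core that hypoxia-inducible factors are known to bind and that also lies within the MYC motif CACGTG. Windows were the 250 bases before a transcript start, from RefSeq on GRCm38.p6, the build of the authors' alignment, and both strands were searched, so that CACGT on the printed strand counts as well and each CACGTG counts for both. All 10 members had a window. In the first one listed, 4 of 10 members held the core (Hk2, Pgk1, Pgam1 and Ldha), against 16.6% of 32851 windows of all genes, and CACGTG was in 6.02% of all windows. Over all 16 listed windows of the members, 7 held the core. At least 1 window held it in 6 of 10 members, Aldoa and Pkm included. A gene with more windows has more chances of a match, and no share of all genes was counted that way. A match is a description of letters, and binding was not measured here. Whether the core bears on the members' levels was not tested. Shown, with the core in capitals, are the windows of the members with the lowest ratios to 0 h at 96 h of HOXA9 OFF (Ldha, Pgam1) and with the highest in CPM (Hk2, Pkm):
Ldha, chr7:46845554-46845803, plus strand: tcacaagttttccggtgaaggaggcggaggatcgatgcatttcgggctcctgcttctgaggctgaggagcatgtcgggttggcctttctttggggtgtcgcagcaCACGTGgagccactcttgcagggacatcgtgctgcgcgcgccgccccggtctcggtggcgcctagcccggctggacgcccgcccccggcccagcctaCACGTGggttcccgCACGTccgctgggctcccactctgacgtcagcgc
Pgam1, chr19:41911621-41911870, plus strand: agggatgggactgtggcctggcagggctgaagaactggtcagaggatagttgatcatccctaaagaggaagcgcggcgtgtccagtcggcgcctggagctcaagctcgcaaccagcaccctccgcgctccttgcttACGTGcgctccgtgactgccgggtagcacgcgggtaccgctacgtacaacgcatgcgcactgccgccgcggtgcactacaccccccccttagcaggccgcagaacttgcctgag
Hk2, chr6:82774455-82774704, minus strand: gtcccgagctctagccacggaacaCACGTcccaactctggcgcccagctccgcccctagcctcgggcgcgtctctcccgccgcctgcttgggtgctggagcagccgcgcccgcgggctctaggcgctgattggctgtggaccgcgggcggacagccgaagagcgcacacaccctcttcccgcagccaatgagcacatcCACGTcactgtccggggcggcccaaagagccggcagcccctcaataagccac
Pkm, chr9:59656326-59656575, plus strand: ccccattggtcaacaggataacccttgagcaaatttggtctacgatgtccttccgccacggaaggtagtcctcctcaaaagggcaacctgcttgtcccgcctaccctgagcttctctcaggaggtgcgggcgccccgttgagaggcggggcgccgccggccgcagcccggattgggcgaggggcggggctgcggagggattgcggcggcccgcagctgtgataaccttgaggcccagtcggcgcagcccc
Ldha held 5 matches in 3 places, 2 of them full CACGTG, the nearest beginning 34 bases before the start. Pgam1 held 1 match 114 bases before the start, and Hk2 held 2 matches, 226 and 52 bases before it. The Pkm window printed held 0, and the window of its other listed start held 1 match, 75 bases before that start.

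Counted by size, few members passed 2-fold under CAF-1 OFF, and Ldha passed it in 3 of the 4 comparisons. A gene was called higher or lower when its ratio of CPM + 10 was at least 2-fold, and 9 of the 10 members, without Pgk1, had the mean of 20 CPM asked of the 4789 genes that give the background. At 48 h of CAF-1 OFF, 0 members were higher and 0 were lower, against 2.76% and 0.0418% of all genes. After 96 h of CAF-1 OFF, 0 were higher, against 5.22% of all genes, and 2 were lower (Pfkl and Ldha), against 0.856%. At 48 h of HOXA9 OFF, 1 was higher (Gpi1), against 13% of all genes, and 3 were lower (Gapdh, Eno1 and Ldha), against 19.6%. After 96 h of HOXA9 OFF, 1 was higher (Hk2), against 18.1%, and 3 were lower (Gapdh, Pgam1 and Ldha), against 39.8%. Hk2 reached the mean of 20 CPM only through the later HOXA9 OFF libraries, being at 14.3 CPM or less in all others. The share of all genes is therefore no fair background for its call. With TMM factors 1 member (Ldha) was lower at 48 h of HOXA9 OFF, against 13.8% of all genes, and 1 at 96 h, against 31.1%. Between the 0 h libraries 0 members were called, against 0.752% of all genes higher and 0.146% lower under HOXA9 OFF.

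The median log2 ratio of the 10 members was -0.093 and -0.33 at 48 and 96 h of CAF-1 OFF, beside 0 and -0.075 for all genes. Under HOXA9 OFF it was -0.37 and -0.28, beside -0.23 and -0.56. Scaling sets these medians: with TMM factors the median of all genes was 0.018 and -0.19 under HOXA9 OFF and that of the members -0.16 and 0.16. Higher calls made up 39.8% of all calls at 48 h and 31.2% at 96 h of HOXA9 OFF on library totals, 54.6% and 44.0% with TMM factors, 51.2% and 46.4% with median-of-ratios factors, and 7.54% and 7.42% with UMIs per cell. At 96 h of CAF-1 OFF they were 85.9% on library totals and 73.1% with UMIs per cell.

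**Figure D2:**
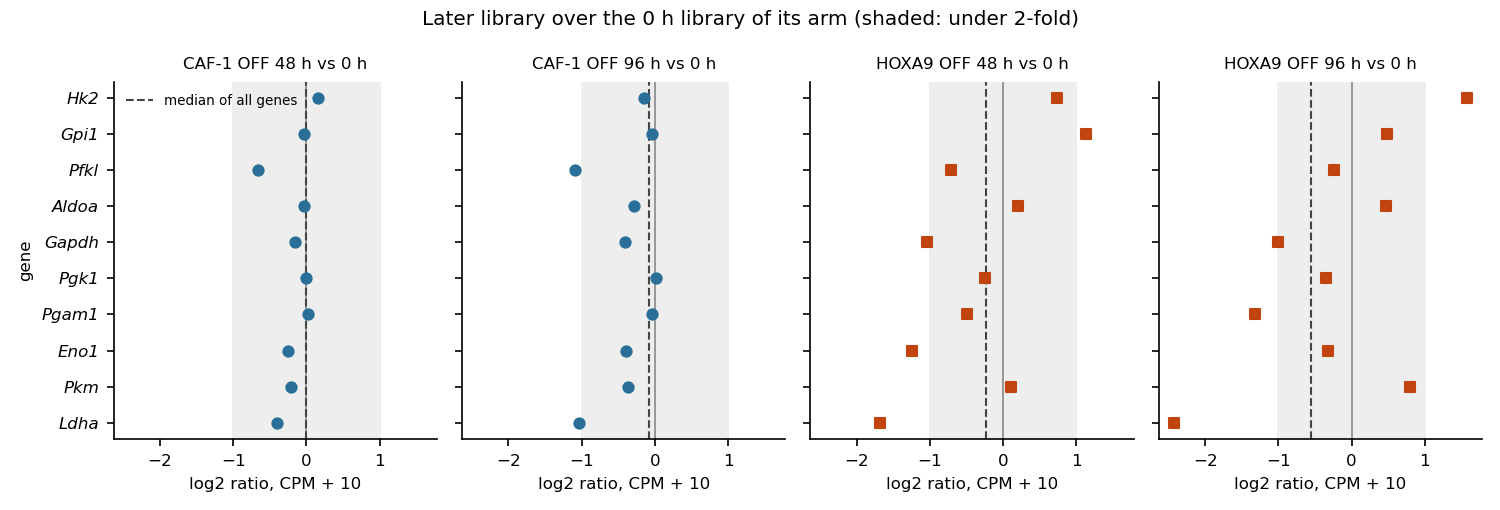
Log2 ratio of CPM + 10 (horizontal axis) of the later library over the 0 h library of its arm for the 10 genes (rows), 1 panel per comparison, with the shaded band under 2-fold, a solid line at 0 and a dashed line at the median of 4789 genes. The members spread from -2.43 (Ldha) to 1.58 (Hk2) at 96 h of HOXA9 OFF and from -1.09 (Pfkl) to 0.017 (Pgk1) at 96 h of CAF-1 OFF, and with UMIs per cell the points of Gpi1, Aldoa and Pkm under HOXA9 OFF and of Hk2 at 48 h fall below 0.

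Ratios between genes of the same library need no scaling, and several of them moved away from their 0 h value. Per 100 UMIs of Pkm there were 134, 117 and 84.2 of Ldha under CAF-1 OFF and 137, 38.5 and 13.8 under HOXA9 OFF at 0, 48 and 96 h. The 0 h values lay close together, and the exact intervals at 96 h were 80.0 to 88.7 under CAF-1 OFF and 12.7 to 15.0 under HOXA9 OFF. Between the steps of the trioses, Gapdh per 100 Aldoa was 270.5, 249 and 249 under CAF-1 OFF and 238, 100.4 and 85.4 under HOXA9 OFF. Pgam1 per 100 Aldoa was higher at 96 h than at 0 h under CAF-1 OFF (143, 147 and 169.8) and lower under HOXA9 OFF (122, 75.5 and 34.9). The payoff enzymes Eno1 and Pgam1 did not keep a fixed ratio either, since Eno1 per 100 Pgam1 was 45.9, 26.6 and 92.3 under HOXA9 OFF and 43.0, 35.5 and 33.4 under CAF-1 OFF. Aldoa and Pkm stayed closest, with 97.1, 85.6 and 91.2 of Pkm per 100 Aldoa under CAF-1 OFF and 81.2, 76.3 and 103 under HOXA9 OFF. Of 36 pairs among the 9 members over 20 CPM, Aldoa and Pkm had the most alike profiles over the 6 libraries (root mean square difference 0.15 on the log2 scale) and Hk2 and Ldha the least alike (1.56), where Hk2 passes 20 CPM only through the later HOXA9 OFF libraries, being at 14.3 CPM or less in the other 4.

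**Figure D3:**
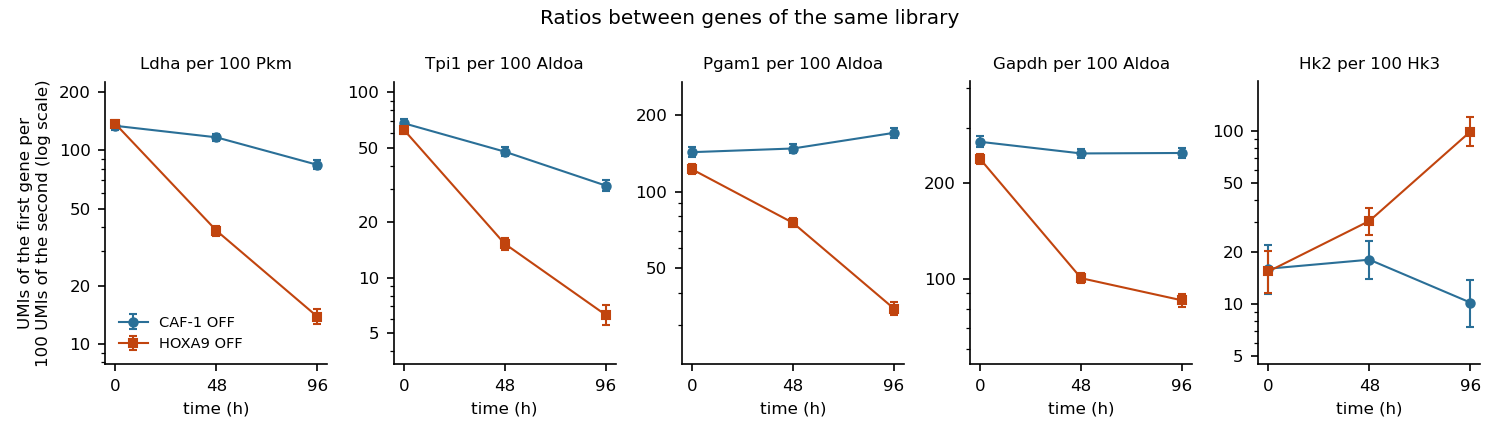
UMIs of one gene per 100 UMIs of another in the same library (vertical axis, log scale) against time in h, CAF-1 OFF as blue circles and HOXA9 OFF as orange squares, with exact 95% binomial intervals. At 0 h the intervals of the arms overlap, other than for Gapdh and Pgam1 per 100 Aldoa, which are higher under CAF-1 OFF. By 96 h Ldha per 100 Pkm is 84.2 under CAF-1 OFF and 13.8 under HOXA9 OFF, while Hk2 per 100 Hk3 is 10.2 and 99.5.

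Set side by side at 96 h, the arms differed less in the sum than in Hk2, Pkm, Aldoa, Ldha and Pgam1 when measured in CPM. In UMIs per cell the sum was 2.64-fold lower under HOXA9 OFF, further apart than Pkm and Aldoa. In CPM, at 96 h the summed level of HOXA9 OFF over CAF-1 OFF was 0.962 (95% interval 0.944 to 0.980), at 48 h 0.791 (95% interval 0.778 to 0.804), and at 0 h 0.964. At 96 h Hk2 was 7.20-fold higher (95% interval 5.23 to 10.1), Pkm 2.08-fold higher (95% interval 1.99 to 2.18) and Aldoa 1.85-fold higher (95% interval 1.77 to 1.94) under HOXA9 OFF, Ldha was 2.93-fold lower (95% interval 2.68 to 3.202) and Pgam1 2.63-fold lower (95% interval 2.48 to 2.79). Of these, Pkm and Aldoa turned with UMIs per cell, where HOXA9 OFF was 1.22-fold and 1.37-fold lower. At 48 h Gpi1 was 2.07-fold higher (95% interval 1.96 to 2.18) under HOXA9 OFF and Ldha 2.66-fold lower (95% interval 2.51 to 2.82). The clones differ between the arms as well as the treatments, and these cannot be told apart here. At 0 h the largest difference of a member between the libraries of the arms was 0.29 on the log2 scale of CPM + 10, in Pfkl.

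Most other forms of the enzymes stayed at low levels. Of 21 genes for other isoenzymes and for the step between Aldoa and Gapdh, 15 had a UMI and 5 had a mean of 20 CPM. Tpi1, which interconverts the triose phosphates and is not among the 10, was at 538, 369.6 and 203 CPM under CAF-1 OFF and 543, 151 and 75.5 CPM under HOXA9 OFF. It was 2.65-fold lower (95% interval 2.46 to 2.85) than 0 h at 96 h of CAF-1 OFF and 7.20-fold lower (95% interval 6.34 to 8.21) at 96 h of HOXA9 OFF, a lower ratio than that of any of the 10 members in both comparisons. Ldhb, the other subunit of lactate dehydrogenase, and Pklr, the pyruvate kinase of liver and red cells, were named after their values were seen, and held at most 0.716 and 0 CPM. Among the hexokinases, Hk3, the form typical of granulocytes, was at 66.4, 72.1 and 85.1 CPM under CAF-1 OFF and 92.4, 101 and 63.0 CPM under HOXA9 OFF, and Hk1 was at 45.1, 51.0 and 38.2 and 37.9, 46.1 and 30.6 CPM. Hk2 per 100 Hk3 was 16.1, 18.1 and 10.2 under CAF-1 OFF and 15.5, 30.3 and 99.5 under HOXA9 OFF. Adpgk, a glucokinase that uses ADP, was at 22.8, 26.8 and 19.8 CPM under CAF-1 OFF and 13.8, 67.4 and 383 CPM under HOXA9 OFF, where it was 27.7-fold higher (95% interval 21.3 to 36.6) at 96 h and also higher in UMIs per cell (7.29-fold). The 5 near-identical copies of Eno1, Aldoa, Pgk1 and Gapdh in the table summed to between 1.69 and 8.35 CPM.

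Of the branches around the members, few genes were called under CAF-1 OFF. The shares of all genes to read the counts against are 13% higher and 19.6% lower at 48 h of HOXA9 OFF and 18.1% higher and 39.8% lower at 96 h, and since these are over genes with a mean of 20 CPM, the counts over such genes of a list are given too. Of 9 pentose phosphate genes, which make NADPH and ribose from glucose 6-phosphate, 3 were called higher and 0 lower at 48 h of HOXA9 OFF, and 3 higher and 2 lower at 96 h, all of them among the 8 genes over 20 CPM. Among them G6pdx, the entry enzyme, was at 18.4, 78.9 and 99.0 CPM under HOXA9 OFF. It was at 18.7, 16.5 and 17.4 CPM under CAF-1 OFF, so it reached the mean of 20 CPM only through the later HOXA9 OFF libraries. The share of all genes is therefore no fair background for its calls. Taldo1, a transaldolase that returns sugars to glycolysis, was at 484, 1099 and 1834 CPM, though it stayed at 4.29, 4.16 and 4.28 UMIs per cell. Of 13 glycogen genes, 5 were higher and 0 lower at 48 h, and 4 higher and 1 lower at 96 h, all of them among the 8 genes over 20 CPM. Pygl, a phosphorylase that releases glucose from glycogen, was at 7.88, 84.2 and 249 CPM. As it was under 20 CPM at 0 h, that share is no fair background for its calls either. The medians given below for the pentose phosphate and glycogen lists include G6pdx and Pygl. Of the 6 genes of the serine branch, which leaves glycolysis after the Pgk1 step, 5 were lower at 48 h and 6 at 96 h. Phgdh, its first enzyme, was at 312, 24.1 and 1.70 CPM under HOXA9 OFF and at 349, 209.9 and 197 CPM under CAF-1 OFF. Of 16 citrate cycle genes, 0 were higher and 4 lower at 48 h, and 0 higher and 13 lower at 96 h, where 39.8% of all genes were lower. The median log2 ratios at 96 h of HOXA9 OFF, over the genes with a mean of 20 CPM, were 0.41 for the pentose phosphate list, 1.02 for glycogen, -3.55 for serine and -1.35 for the citrate cycle, beside -0.24 for the 9 glycolysis genes over that level and -0.56 for all genes. Under CAF-1 OFF, 0 genes of the pentose phosphate, serine and citrate lists were called at either time, and 1 glycogen gene was higher at 96 h. The shares of all genes there were 2.76% higher and 0.0418% lower at 48 h and 5.22% and 0.856% at 96 h.

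At the end of the pathway, Ldha was lower while both genes of the mitochondrial pyruvate carrier were higher in CPM, though lower in UMIs per cell, under HOXA9 OFF. Mpc1 was at 209, 284 and 482 CPM and Mpc2 at 115, 238 and 399 CPM there, and both were at 169.7, 206 and 240.4 and at 127, 134 and 125 CPM under CAF-1 OFF. Pdha1, a subunit of pyruvate dehydrogenase, was at 140.3, 90.2 and 30.4 CPM under HOXA9 OFF. Of 12 genes of pyruvate entry 2 were called higher and 6 lower at 96 h, or 2 and 4 of the 7 over 20 CPM. Of all genes, 18.1% were called higher and 39.8% lower at 96 h of HOXA9 OFF, and 13% and 19.6% at 48 h. At the start of the pathway, Slc2a3, a glucose transporter of high affinity, was at 5.25, 8.47 and 76.0 CPM under HOXA9 OFF, highest at 96 h as Hk2 was. The lactate exporter Slc16a3 was at 53.2, 26.4 and 56.2 CPM and its partner Bsg at 365, 236 and 83.7 CPM. Of 11 transport genes 0 were called under CAF-1 OFF, 2 were lower at 48 h of HOXA9 OFF, and 2 were higher and 3 lower at 96 h, but of the 2 genes over 20 CPM 0 were called at 48 h and 1 was lower at 96 h. The ratios of UMIs per cell at 96 h to those at 0 h of HOXA9 OFF were 0.609 for Mpc1, 0.916 for Mpc2 and 3.82 for Slc2a3, so the direction of Mpc1 and Mpc2 turned on that scale.

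Of 15 regulators, 1 was higher at 48 h and 2 at 96 h of CAF-1 OFF with 0 lower. Of the 5 over 20 CPM, 1 was higher at each of these times. Under HOXA9 OFF 0 were higher and 2 lower at 48 h, and 2 were higher and 2 lower at 96 h. Of the 5 over 20 CPM, 0 were higher and 1 lower there, then 1 higher and 1 lower. Of all genes, 2.76% were called higher and 0.0418% lower at 48 h of CAF-1 OFF, and 5.22% and 0.856% at 96 h. Under HOXA9 OFF these shares were 13% and 19.6%, then 18.1% and 39.8%. Myc was at 102, 89.99 and 95.1 CPM under CAF-1 OFF and at 94.7, 10.4 and 0.567 CPM under HOXA9 OFF, and its part in the members' levels was not tested. Fbp1, which runs the phosphofructokinase step backwards, was at 8.07, 77.8 and 215 CPM under CAF-1 OFF and at 6.68, 5.84 and 0.851 CPM under HOXA9 OFF, opposite to Pfkl in the first. Of 14 hypoxia-response genes outside glycolysis, 0 were called at 48 h of CAF-1 OFF and 2 were lower at 96 h, or 1 of the 6 over 20 CPM. Under HOXA9 OFF 1 was higher and 2 lower at 48 h, and 1 was higher and 4 lower at 96 h, or, of the 6 over 20 CPM, 1 and 1, then 1 and 2. Egln3, a HIF prolyl hydroxylase, was at 125, 12.4 and 18.2 CPM under HOXA9 OFF and Bnip3l, a mitophagy receptor, at 136, 367 and 297 CPM.

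The members' levels differed beside large differences in cell type markers and in genes of the cell cycle, whose part in the members' levels was not tested beyond the splits of cells given next. The summed S phase genes were at 3658, 3509.6 and 2837 CPM under CAF-1 OFF and 3299, 1193 and 243 CPM under HOXA9 OFF. Of 25, 20 were called lower at 48 h of HOXA9 OFF and 25 at 96 h, against 19.6% and 39.8% of all genes. At 96 h of CAF-1 OFF 1 of 25 was lower, against 0.856%. The summed G2/M genes were at 3215, 3642 and 3696 CPM and 3223, 1618 and 252 CPM. The progenitor genes summed to 7579, 9156 and 11649.6 CPM under CAF-1 OFF and 6701, 4799 and 1163 CPM under HOXA9 OFF. The late granulocyte genes summed to 34.2, 721 and 1205 CPM under CAF-1 OFF and 30.1, 10453 and 151138 CPM under HOXA9 OFF. Of 11, 8 were called higher at 48 h and 11 at 96 h of HOXA9 OFF. At 48 and 96 h of CAF-1 OFF 3 and 4 of 11 were called higher, with median log2 ratios of 0.15 and 0.55. So low at 0 h, these genes reached the mean of 20 CPM only through later libraries. The shares of all genes, 18.1% at 96 h of HOXA9 OFF, are therefore no fair background for these counts. The eosinophil genes summed to 217, 460.3 and 1242 CPM under CAF-1 OFF and 1469.6, 19278 and 3264 CPM under HOXA9 OFF, where they were highest at the time at which Gpi1 was highest and Eno1 lowest. Under CAF-1 OFF the megakaryocyte and erythroid genes summed to 204, 803 and 3066 CPM and the mast cell or basophil genes to 287, 1469 and 4050.3 CPM, and under HOXA9 OFF these lists summed to 186, 114 and 26.4 CPM and to 829, 533 and 85.1 CPM. The monocyte genes summed to 687, 719 and 628 CPM under CAF-1 OFF and 484, 804 and 674 CPM under HOXA9 OFF. Lymphoid genes held at most 32.4 CPM in any library and genes of other tissues at most 3.89 CPM. At 48 and 96 h of CAF-1 OFF, 1 and 2 of 8 eosinophil genes were called higher. Of 10 mast cell or basophil genes 2 were higher at each time, and of 12 megakaryocyte and erythroid genes 4 and 6. Few genes can thus carry these sums. Of all genes 2.76% and 5.22% were higher, over genes with a mean of 20 CPM, which not all list genes reached.

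Within each library, nearly every cell held UMIs of the 10 enzymes. The members made up a median of 0.634, 0.588 and 0.521% of a cell's UMIs under CAF-1 OFF and 0.597, 0.470 and 0.486% under HOXA9 OFF. From the 10th to the 90th percentile, cells ran from 0.445% to 1.06% at 0 h of CAF-1 OFF and from 0.259% to 0.754% at 96 h of HOXA9 OFF. The ranges of the libraries overlapped. Cells with 0 member UMIs numbered 1 at 96 h of CAF-1 OFF, 4 and 3 at 48 and 96 h of HOXA9 OFF, and 0 in the other libraries. In member UMIs the median cell held 55 at 0 h, 17 at 48 h and 10 at 96 h of HOXA9 OFF, so a single cell at 96 h gives a coarse percentage. The shallower cells of a library had a summed level of 7319 CPM and the deeper cells of 6532 CPM at 0 h of CAF-1 OFF, and 4780.0 and 5179 CPM at 96 h of HOXA9 OFF.

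**Figure D4:**
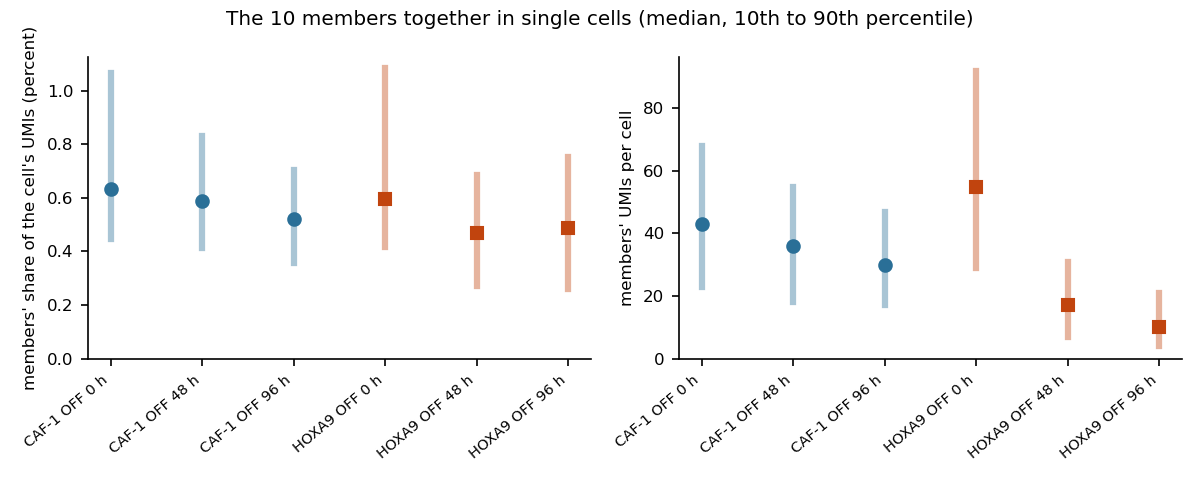
Percent of a cell's UMIs from the 10 glycolysis genes (left, vertical axis) and UMIs per cell from them (right) in each of the 6 libraries (horizontal axis), with the median as a point and a bar from the 10th to the 90th percentile of cells, CAF-1 OFF in blue and HOXA9 OFF in orange. The median percentages run from 0.634% at 0 h of CAF-1 OFF to 0.470% at 48 h of HOXA9 OFF, and the bars overlap.

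Cells of a library were also split into tertiles by the share of their UMIs from a marker list, and the members' CPM was compared between the highest and the lowest tertile over totals without the list's genes. These are cells of 1 library and not replicates, so intervals cover counting error. By genes of the cell cycle, the ratio of highest to lowest for the sum of members was 0.873 (0.849 to 0.899), 0.909 (0.885 to 0.933) and 0.915 (0.888 to 0.943) at 0, 48 and 96 h of CAF-1 OFF. Under HOXA9 OFF it was 0.942 (0.915 to 0.970), 1.10 (1.07 to 1.13) and 1.04 (1.00 to 1.08), and the first of these turned to 1.01 when cells were thinned to 1300 UMIs, which left out 14, 20 and 9 shallower cells of CAF-1 OFF and 1, 28 and 134 of HOXA9 OFF. In thinned cells the CAF-1 OFF ratios were 0.935 (0.877 to 0.997), 0.949 (0.893 to 1.01) and 0.904 (0.848 to 0.963), of which the interval at 48 h includes 1. At 48 and 96 h of HOXA9 OFF the thinned ratios were 1.03 (0.982 to 1.08) and 1.01 (0.9501 to 1.08), and both intervals include 1. At 48 h of HOXA9 OFF, single members differed along this split, with ratios of 1.53 (1.41 to 1.65) for Pgam1, 1.25 (1.10 to 1.41) for Ldha and 0.822 (0.769 to 0.879) for Aldoa, and 2.65 (2.18 to 3.24) for the neighbour Tpi1. Thinning took Ldha to 0.986 (0.798 to 1.21), across 1. The split left 159 cells near a border at 48 h and 767 at 96 h of HOXA9 OFF.

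By late granulocyte genes, the tertiles of HOXA9 OFF held 0.0386% and 3.34% of UMIs from the list at 48 h and 5.32% and 25.2% at 96 h. The members' sum was higher in the highest tertile at both times, with ratios of 1.25 (1.22 to 1.29) and 1.22 (1.18 to 1.27). At 48 h Gpi1 was at 1.60 (1.48 to 1.72) and Pkm at 1.67 (1.54 to 1.81), and in thinned cells at 1.43 and 1.80. At 96 h Pgam1 was at 1.79 (1.58 to 2.03) and Eno1 at 1.45 (1.27 to 1.65), and in thinned cells at 1.74 and 1.26. Ldha lay on the other side of 1, at 0.830 (0.730 to 0.944) at 48 h and 0.656 (0.533 to 0.803) at 96 h. In cells thinned to 1300 UMIs the Ldha ratios were 0.935 (0.748 to 1.17) and 0.792 (0.593 to 1.05), with intervals that reach 1. Adpgk, the ADP-dependent glucokinase, had ratios of 8.08 (5.74 to 11.6) and 5.59 (4.77 to 6.58), higher in the cells with most granulocyte RNA at both times. By eosinophil genes the sum was at 1.08 (1.05 to 1.10) at 0 h and 0.992 (0.961 to 1.02) at 96 h of HOXA9 OFF, and at 1.01 (0.984 to 1.04) at 96 h of CAF-1 OFF. Gpi1 was at 1.17 (1.04 to 1.30), 1.24 (1.12 to 1.37) and 1.24 (1.13 to 1.37) in these, without values in thinned cells. At 48 h of HOXA9 OFF the sum had a ratio of 0.915 (0.888 to 0.944), with Eno1 at 0.654 (0.559 to 0.763) and Gpi1 at 1.18 (1.10 to 1.27). In thinned cells of that library Eno1 was at 0.776 (0.590 to 1.01) and Gpi1 at 1.05 (0.928 to 1.19), and both intervals include 1. Near a border of the granulocyte split lay 98 cells at 48 h and 542 at 96 h. The same split at 48 and 96 h of CAF-1 OFF gave sums at 1.03 (1.00 to 1.06) and 1.03 (0.998 to 1.06). There Ldha was at 0.830 (0.770 to 0.895) and 0.845 (0.769 to 0.929), and Eno1 at 1.34 (1.21 to 1.48) and 1.37 (1.23 to 1.53). In thinned cells Ldha was at 0.995 (0.843 to 1.17) and 0.834 (0.660 to 1.05), and both intervals include 1.

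**Figure D5:**
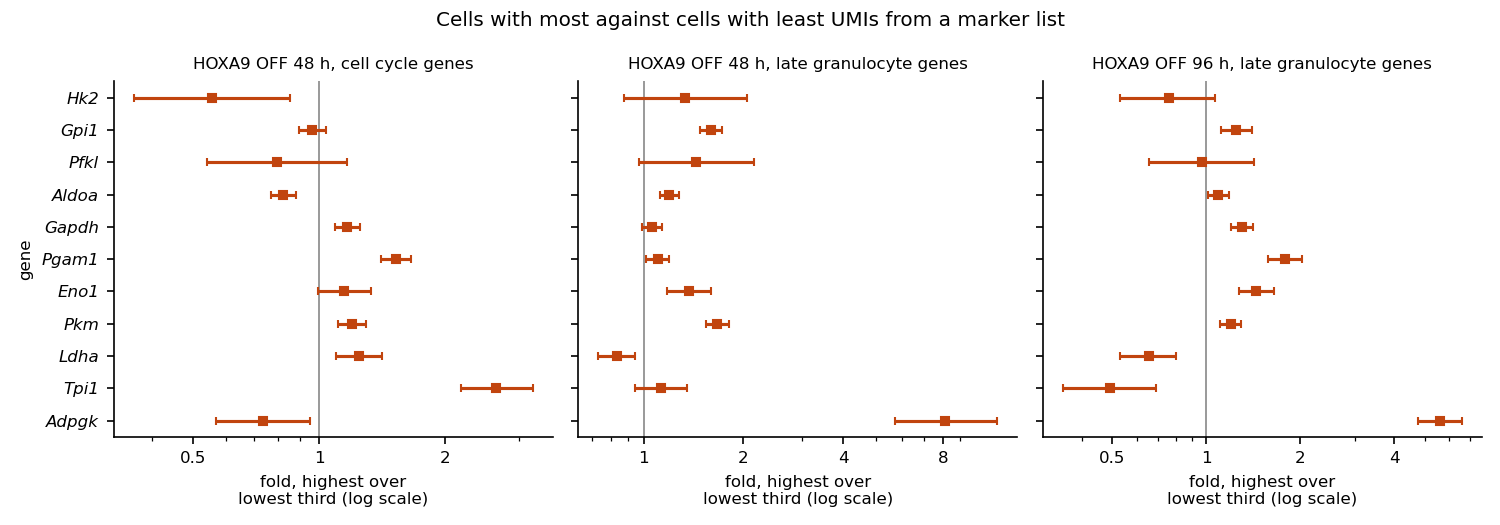
Ratio of CPM in the highest over the lowest tertile of cells (horizontal axis, log scale) for 9 members, Tpi1 and Adpgk (rows), with exact 95% intervals and a line at 1, for cells of HOXA9 OFF split by cell cycle genes at 48 h and by late granulocyte genes at 48 and 96 h. Adpgk lies at 8.08 and 5.59 by granulocyte genes, where Ldha lies below 1 at both times, and in thinned cells the Ldha interval reaches 1.

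Among 4780 other genes that reached a mean of 20 CPM, those whose profile over the 6 libraries was most like the members' sum were Hjurp, Zfp787, Irf3, Ndnl2 and Hnrnpl, with root mean square differences from 0.0380 to 0.0503 on the log2 scale. Hjurp, a chaperone of the centromeric histone CENP-A, was at 38.7, 35.6 and 28.2 CPM under CAF-1 OFF and 35.8, 24.3 and 27.8 CPM under HOXA9 OFF. The 6 libraries are the only points of this comparison.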

How the data were processed

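The 6 single-cell RNA-seq libraries (10x Genomics 3′ chemistry) hold 7821 barcodes and 27998 genes. The authors deposited the counts as raw UMI counts per gene and barcode, aligned to mm10. Per the labels, the processing notes name Cell Ranger 3.0.1, Scanpy 1.4.6 and Seurat 3.0.1 with no role. Cells with 200 to 6000 genes and at most 10% mitochondrial UMIs were kept (5872 barcodes), and their counts were summed per library and given as CPM (Python 3.11.15, numpy 2.4.6, pandas 2.3.3, scipy 1.17.1). Doublets were not removed. An alternative without the 125 barcodes that Scrublet (in scanpy 1.11.5) called was run. Sample columns left unmapped numbered 0.

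Groups came from the sample labels. Since a group is 1 library, groups were compared without a test. Intervals are exact (Poisson for a level, conditional binomial for a ratio) at 95% and cover counting error only. Calls need a ratio of CPM + 10 of at least 2-fold, and percentages of all genes are over the 4789 genes whose mean over the libraries reached 20 CPM. The scripts were tested on simulated counts. The sequences are from RefSeq (GRCm38.p6). TMM factors were from edgeR 4.0.16 in R 4.3.3, used for scaling alone, and plots from matplotlib 3.10.9.

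The 10 members were all named. A gene of a pathway list was named only with at least 50 CPM in 1 library, other than those said to be named after their values were seen, and the 5 genes with the profile nearest the members' sum were named. Markers of cell types were named from fixed lists. The members and lists were chosen with earlier results of these data known. Other scalings, cell filters, pseudocounts and fold sizes were tried, and leaving out the cells with shared barcode sequences was chosen after seeing the data.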

Additional observations from a re-analysis of the deposited data

Results flagged for a closer look

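In 3 cases the 95% counting intervals of a member lay wholly below its 0 h level under CAF-1 OFF and wholly above it under HOXA9 OFF, in CPM. At 48 h the log2 ratio of Pkm was -0.21 for CAF-1 OFF, against 0.11 for HOXA9 OFF, a difference of 0.32. At 96 h it was -0.37 and 0.80, a difference of 1.17. For Aldoa at 96 h the log2 ratios were -0.28 and 0.47, a difference of 0.75. With 1 library per group the difference was not tested in any of these cases, and all 3 directions under HOXA9 OFF turned with UMIs per cell.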

How the results depend on the processing

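The log2 ratio of the members' summed CPM to 0 h was -0.16 at 48 h of CAF-1 OFF, and -0.22 with median-of-ratios factors, -0.18 over totals without mitochondrial and ribosomal protein genes, -0.27 in UMIs per cell, -0.11 with all deposited barcodes and -0.11 with at most 5% mitochondrial UMIs. For 96 h of CAF-1 OFF it was -0.38, and -0.30 with TMM factors, -0.35 with median-of-ratios factors, -0.35 over totals without the 25 most abundant genes, -0.52 in UMIs per cell, -0.32 with all barcodes and -0.27 with at most 5% mitochondrial UMIs. At 48 h of HOXA9 OFF it was -0.44, and in the same order of these settings -0.14, -0.20, -0.33, -1.67, -0.28 and -0.48. For 96 h of HOXA9 OFF it was -0.38, and 0.10, 0.18, -0.033, -2.31, -0.20 and -0.46, with -0.81 without mitochondrial and ribosomal protein genes. The first 2 of these are reversed. The median log2 ratio of all genes shifts with the same scalings, from -0.56 to -0.19 with TMM factors and -1.96 in UMIs per cell at 96 h of HOXA9 OFF.

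Members called higher numbered 1 at 48 h of HOXA9 OFF, and 0 in UMIs per cell, 2 with a pseudocount of 1 CPM, 2 at 1.5-fold and 0 at 4-fold. At 96 h they numbered 1, and 2 with TMM factors, 4 with median-of-ratios factors, 2 without the most abundant genes, 0 in UMIs per cell, 0 with a pseudocount of 50 CPM, 2 at 1.5-fold and 0 at 4-fold. Members called lower numbered 0 at 48 h of CAF-1 OFF and 1 at 1.5-fold. At 96 h of CAF-1 OFF they numbered 2, and 1 with TMM factors, 1 with all barcodes, 0 with at most 5% mitochondrial UMIs, 0 with a pseudocount of 50 CPM and 0 at 4-fold. At 48 h of HOXA9 OFF they numbered 3, and 1 with TMM factors, 7 in UMIs per cell and 0 at 4-fold. At 96 h of HOXA9 OFF they numbered 3, and 1 with TMM factors, 1 with median-of-ratios factors, 1 without the most abundant genes, 8 in UMIs per cell and 1 at 4-fold. The cause was not tested in any of these.

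Of 400 log2 ratios of single members under 10 alternatives, 267 stayed within the counting error, 132 moved beyond it and 1 reversed from a call, Gpi1 at 48 h of HOXA9 OFF, from 1.13 to -0.074 in UMIs per cell. Leaving out Scrublet calls moved 0 of 40. The members' sum by cell cycle tertile at 0 h of HOXA9 OFF went from 0.942 to 1.01 in thinned cells. With no minimum level, over 15185 genes, the percentages of genes called higher were 1.13%, 2.44%, 5.33% and 9.16% in the 4 comparisons, and of genes called lower 0.0263%, 0.342%, 7.46% and 16.2%. Without barcode sequences found in more than 1 library, chosen after seeing the data, the sums were -0.15, -0.38, -0.44 and -0.38 on the log2 scale and all counts of members called were equal to those given.

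No paired analysis was possible because each group is 1 library, and for the same reason no replicate could be left out. Depth limits Pgk1 and Hk2 most, with 15 to 34 and 45 to 221 UMIs per library. With at most 5% mitochondrial UMIs, 165 to 1469 cells per library remained.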
